A study of Mus musculus with 22 samples.

Results

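Collagens and other extracellular matrix genes were followed in Panc02, a mouse pancreatic cancer cell line, grown in culture, mixed with natural killer (NK) cells, or grown as tumours in mice. The set holds 39 genes, chosen by name as structural matrix genes and the enzymes and glycoproteins that work with them. The choice was made with earlier results of these data known, so it was not blind to them. All 39 were found among the 78298 genes of the count tables. The study holds 22 poly(A) RNA-seq libraries in 9 groups and asks, by its design text, how NK cells of female and male mice act on Panc02. The groups used for the comparisons below are Panc02 grown alone (2 libraries), Panc02 kept for 24 h with interleukin 2 and splenic NK cells of a female (2) or a male donor (2), and Panc02 allograft tumours from female (4) or male mice (4), a syngeneic model by the design text. The 8 libraries of NK cells without tumour cells, 4 fresh from spleen and 4 after 24 h in interleukin 2, serve only as reference levels. Genotype, strain and age of the animals are not given in the labels, which also do not say whether interleukin 2 was added to Panc02 alone, whether the cell types were separated before RNA was taken from a co-culture, or whether the libraries of a group come from separate cultures or animals. The p-values therefore measure the spread between these libraries, which may be partly technical. Panc02 is 1 cell line, and both tumour and host are mouse, so reads of tumour and host origin cannot be told apart.

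Collagens are built from 3 chains wound into a triple helix. The fibrillar collagens, types I, III, V and XI, form the cables of connective tissue and tumour stroma and are made mainly by fibroblasts. Collagen IV, laminins, nidogen and perlecan form the basement membrane, the thin sheet under epithelia and around vessels, and epithelial and endothelial cells make much of it. Collagen VI forms beaded filaments between both systems, and matricellular proteins such as periostin, tenascin C and the thrombospondins are secreted into the matrix and regulate cells more than they bear load.

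The promoters of 4 members are shown, since they stand for the 3 kinds of behaviour described below: Col1a2 was at 0 counts in cultured Panc02 and among the most abundant matrix genes of the allografts, Lama5 was the member called lower in the allografts, and Col6a1 and Thbs2 rose in co-culture. Each sequence is the 250 bases before the RefSeq transcription start in GRCm38.p6, 5′ to 3′ on the gene's own strand. Capitals mark a CCAAT box, a TATA box (TATAAA), a GC box (GGGCGG) or an AP-1 type site (TGANTCA, with N any base), read on either strand, so that a GC box on the other strand appears as CCGCCC.
Col1a2, chr6:4505368-4505617, plus strand: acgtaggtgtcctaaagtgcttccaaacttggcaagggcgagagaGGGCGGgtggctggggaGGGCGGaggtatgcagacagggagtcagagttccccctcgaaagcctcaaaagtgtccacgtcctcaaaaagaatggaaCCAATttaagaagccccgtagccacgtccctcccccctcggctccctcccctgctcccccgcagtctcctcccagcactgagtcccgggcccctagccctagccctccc
Lama5, chr2:180225860-180226109, minus strand: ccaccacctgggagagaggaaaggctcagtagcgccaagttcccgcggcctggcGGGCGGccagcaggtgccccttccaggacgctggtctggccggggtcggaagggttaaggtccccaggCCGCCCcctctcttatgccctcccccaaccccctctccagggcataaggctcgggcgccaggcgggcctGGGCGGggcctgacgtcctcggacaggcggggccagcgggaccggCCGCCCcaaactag
Col6a1, chr10:76726045-76726294, minus strand: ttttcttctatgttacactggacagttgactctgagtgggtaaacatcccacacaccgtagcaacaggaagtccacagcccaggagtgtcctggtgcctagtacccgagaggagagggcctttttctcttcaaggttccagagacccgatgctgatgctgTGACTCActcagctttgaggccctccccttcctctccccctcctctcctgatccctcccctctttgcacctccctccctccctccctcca
Thbs2, chr17:14694263-14694512, minus strand: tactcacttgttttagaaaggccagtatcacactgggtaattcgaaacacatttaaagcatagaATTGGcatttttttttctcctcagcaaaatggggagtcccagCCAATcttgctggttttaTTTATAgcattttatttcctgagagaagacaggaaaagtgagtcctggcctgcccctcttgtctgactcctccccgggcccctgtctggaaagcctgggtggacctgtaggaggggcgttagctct
The first base of each match, counted back from the start, lay at -205 and -188 for the GC boxes and at -109 for the CCAAT box of Col1a2. Lama5 held 4 GC boxes and none of the other letters searched, Col6a1 held the AP-1 type site at -90 alone, and Thbs2 held CCAAT on both strands and TATAAA on the other strand. Of the 28 members in the promoter table, 23 had a single listed start and were searched. A GC box was found in 15 of the 23 (65.2%), against 32.4% of 22862 promoters of the same length, CCAAT in 11 (47.8% against 34.7%), TATAAA in 2 (8.7% against 13.6%), and the AP-1 type site in 1, Col6a1 (4.35% against 6.96%). No searched motif contains another. These are matches of letters and no evidence of a factor at the site.

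The libraries held 13025549 to 46842646 counts, and a level below, unless said otherwise, is in CPM, the count of a gene scaled by the total gene count of its library. The 2 mates of a read pair were counted separately, so these counts overstate the number of molecules seen. Summed fibroblast, endothelial, macrophage and skeletal muscle markers were higher in every allograft than in both cultures, while the Schwann cell, NK cell and adipocyte sums overlapped. The Schwann cell markers summed to 31.9 and 33.8 CPM in culture and 24.5 to 35.4 CPM in the allografts, the NK cell markers to 17.7 and 19.8 CPM against 11.9 to 48.2 CPM, and the adipocyte markers to 0.0427 and 0.499 CPM against 0.166 to 81.7 CPM. In edgeR's test, described below, 7 of 8 NK cell markers were nevertheless called higher in the allografts and 1 lower. For adipocyte markers 5 of 7 and for Schwann cell markers 3 of 5 were higher, against 38.8% higher and 23.3% lower of all genes. With 0 counts in both cultures, 5 of the NK cell and 4 of the adipocyte markers had no free direction. The summed level of 14 fibroblast and pericyte markers was 48.5 and 55.9 CPM in the cultures, with Dpt, Dcn, Lum and Fap at 0 counts in both, and 1190 to 2350 CPM in the allografts. For 12 endothelial markers it was 27.4 and 30.7 CPM, with 7 markers at 0 in both cultures, against 234 to 573 CPM. The 10 macrophage markers summed to 75.1 and 77.7 CPM against 2390 to 4440 CPM. The 12 skeletal muscle markers summed to 3.42 and 3.82 CPM in culture and to 834 to 42800 CPM in the allografts, with allografts 2, 4 and 7 at 25500, 42800 and 12000 CPM. The 8 epithelial markers listed for Panc02 summed to 4480 and 4430 CPM in culture and 774 to 1820 CPM in the allografts. In these bulk libraries fewer cells of a type and less RNA per cell cannot be told apart, and the part of any of these cell types in the results below was not tested.

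Cultured Panc02 transcribed basement membrane genes and very little fibrillar collagen. A member was counted as made in culture where it reached at least 1 CPM in both libraries, and 19 of the 39 did. They were Col4a1, Col4a2, Col18a1, Col7a1 and Col8a1 of the network-forming and basement membrane collagens, Lama5, Lamb1, Lamc1, Nid1 and Hspg2 of the basement membrane, Col5a1, Col6a1, Col6a2, Col12a1, Sparc, Thbs1, Thbs2, Vcan and Lox. Lox (1.58 and 2.40 CPM) and Vcan (1.75 and 1.21 CPM) lay just inside this limit. Col1a1 (0.897 and 0.807 CPM) and Col15a1 (0.961 and 0.783 CPM) lay just outside it. With a limit of 0.5 CPM 22 members counted as made, and with 5 CPM 16. All 19 were also at 1 CPM or above in each of the 4 co-cultures.

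Levels per kilobase, used to compare genes with each other, divide by the summed length of all annotated exons of a gene. The transcripts present may be shorter, so rankings and ratios between genes on this scale partly depend on the annotation. On this scale the highest member in cultured Panc02 was Col18a1, whose product carries the endostatin domain, at 93.7 ± 0.466 CPM per kb (SD, n = 2). Sparc, a collagen-binding glycoprotein, followed at 80.3 ± 2.67, the laminin chain Lama5 at 65.8 ± 0.664, the thrombospondin Thbs1 at 52.5 ± 1.60, and the collagen IV chains Col4a1 and Col4a2 at 50.9 ± 0.530 and 40.6 ± 0.0423. Lamb1 and Lamc1, the partners of Lama5 in a laminin trimer, stood at 36.5 ± 0.695 and 34.5 ± 0.210 CPM per kb. Thbs1 and Col4a1 differed by no more than their spread, while the other neighbours in this order were further apart than their SDs. Of the laminin α chains among the members, Lama5 was the only one with a count in the cultures: Lama1, Lama2 and Lama4 had 0 counts in both.

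Several chains had partners with few or no counts in culture. Col5a1, a fibrillar chain that nucleates collagen I fibrils, was at 159 and 168 CPM, while its partners Col5a2 and Col5a3 had 0 counts in both cultures. Col6a1 and Col6a2 were at 55.8 and 59.5 CPM and at 13.3 and 14 CPM, while Col6a3, the chain that completes the collagen VI monomer, was at 0.0854 and 0.427 CPM. The per kilobase ratio of Col6a1 to Col6a2 was 7.99 and 8.09 in the cultures and 2.28 to 2.82 in the allografts, without overlap. The ratio of Col4a1 to Col4a2 was 1.24 and 1.26 in the cultures and 1.31 to 1.62 in the allografts.

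The other 20 members were under 1 CPM in at least 1 culture, and 9 of these had 0 counts in both: Col1a2, Col5a2, Col5a3, Col11a1, Lama1, Lama2, Lama4, Postn and Eln. A count of 0 in both cultures allows a level of up to 0.0337 CPM (3 counts over the group, for counting error only). Since the 2 mates of a pair were counted separately, 3 read pairs would be 6 counts or 0.0674 CPM, and on that reading each at-least ratio below would be 0.5 times the value given. The filter on low counts asked for at least 0.248 CPM in 2 of the 10 libraries, and 14 of the 39 members did not reach this in both cultures: the 9 at 0 counts, Col3a1, Col6a3, Col14a1, Col16a1 and Tnc. These 14 could be tested because they were high in the allografts, so that their direction was not free, and the counts and medians below are also given for the other 25.

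**Figure D1:**
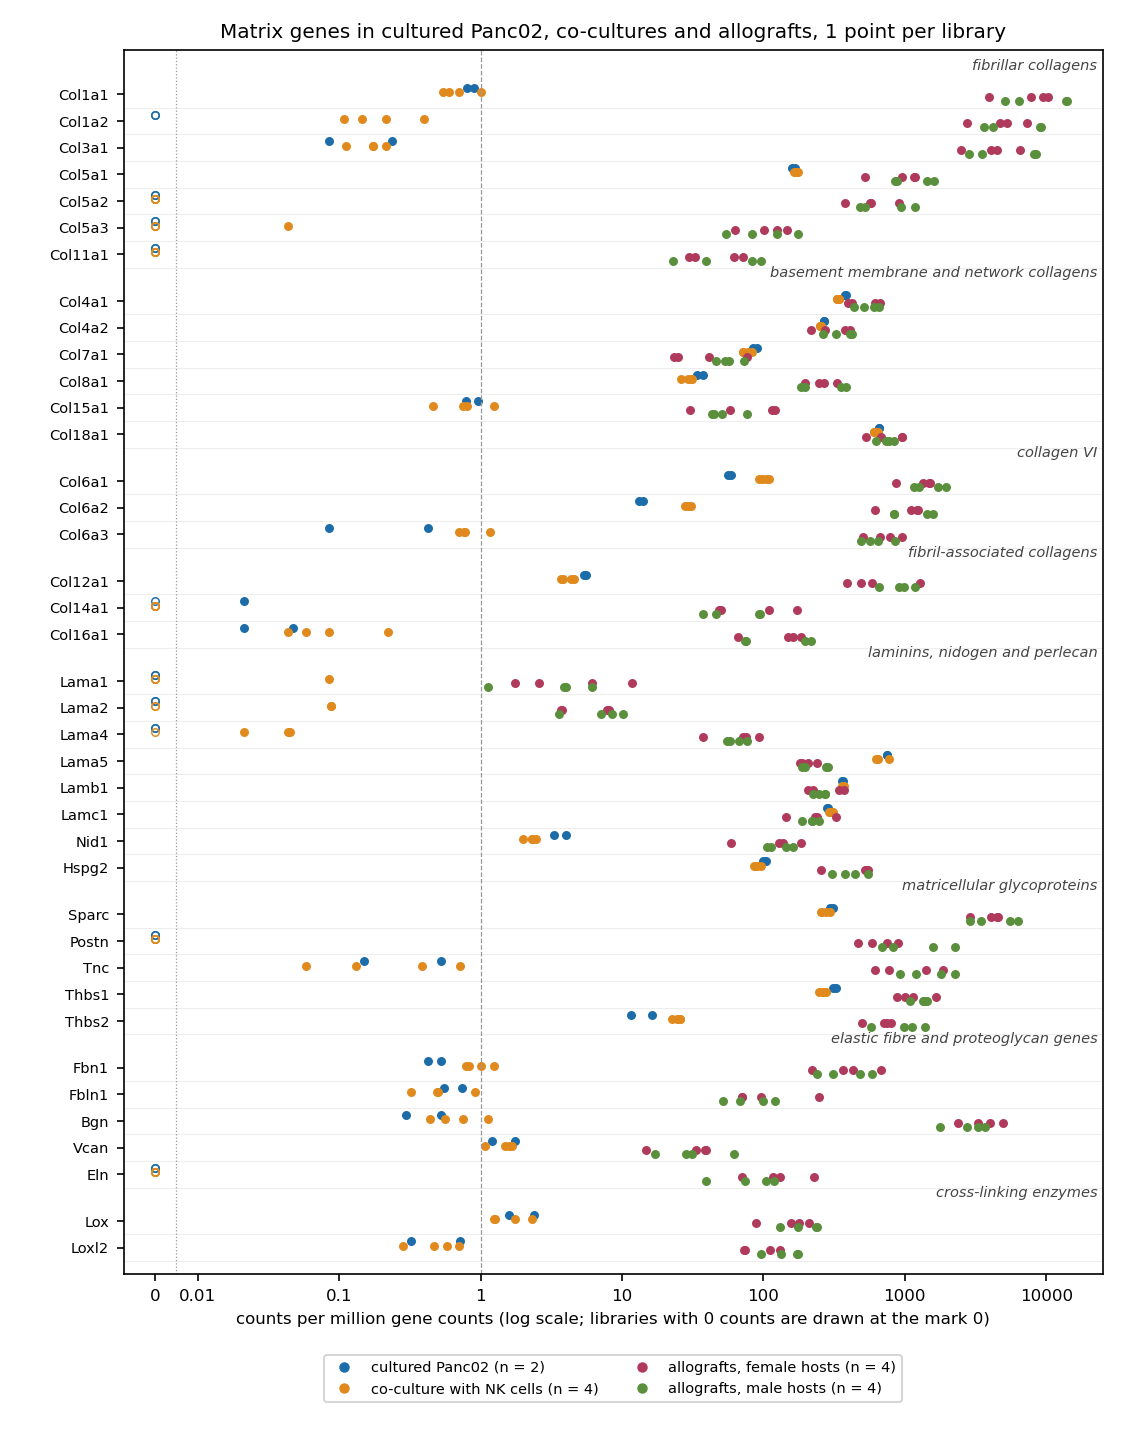
Level of each of the 39 matrix genes in CPM (log axis), 1 point per library, grouped by role; open circles at the mark 0 are libraries with no count, and the dashed line is the 1 CPM limit for a gene made in culture. The fibrillar collagens other than Col5a1 sit near or under 1 CPM in every culture and co-culture and at 22.9 CPM or above in every allograft, while Col4a1, Col4a2, Col18a1, Lamb1 and Lamc1 lie at similar levels in all of them.

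In the allografts the matrix genes took a larger share of all RNA and their make-up was different. The 39 genes summed to 0.380% and 0.383% of all gene counts in the cultures and to 2.36% to 6.15% in the allografts, above the cultures in 8 of 8. Fibrillar collagens made up 4.2% and 4.4% of the members' counts in the cultures and 43.2% to 57.5% in the allografts. The network and basement membrane collagens made up 37.8% and 37.1% of the members' counts in culture and 3.02% to 7.64% in the allografts, and the laminin, nidogen and perlecan group 39.5% and 39.2% against 2.16% to 4.38%. Taken over all gene counts the network and basement membrane collagens were at 0.144% and 0.142% in culture and 0.155% to 0.251% in the allografts, and the laminin group at 0.150% in both cultures and 0.0889% to 0.167% in the allografts.

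**Figure D2:**
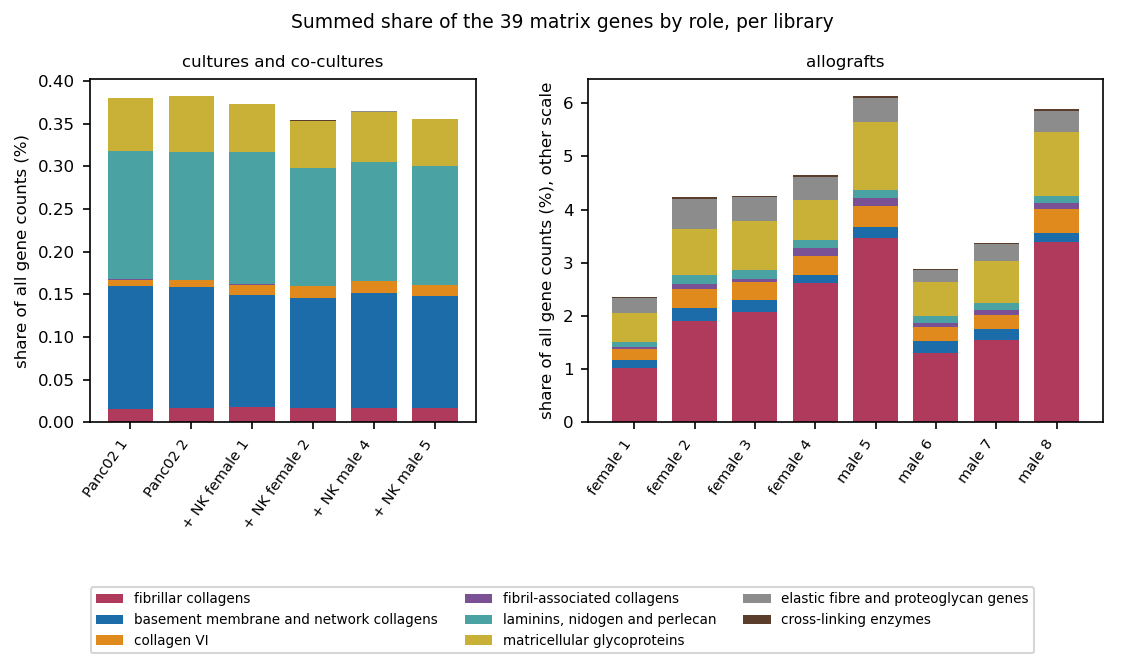
Share of all gene counts (%) taken by the 39 matrix genes in each library, stacked by role; the left panel holds 2 cultures and 4 co-cultures and the right panel 8 allografts, on different scales that both start at 0. Cultures and co-cultures stay between 0.354% and 0.383% with a thin fibrillar layer, and the allografts reach 2.36% to 6.15% with the fibrillar collagens as the thickest layer.

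Tested against cultured Panc02 with edgeR's quasi-likelihood test over all genes (Benjamini-Hochberg adjusted p under 0.05), 33 of the 39 members were higher in the allografts and 1 was lower. Of all 23264 genes tested, 38.8% were called higher and 23.3% lower. Among the 25 members that passed the filter in the cultures alone 19 were higher and 1 lower, with a median log2 difference of 4.54, and of all 15645 genes of that kind 25.9% were higher and 34.7% lower, with a median of -0.15. The median log2 difference was 7.26 over the members, or 7.12 with the 9 genes at 0 in culture held at their lower bound, and 0.419 over all genes tested. Including those 14, the libraries of the 2 groups did not overlap for 33 members that were higher and 2 that were lower, against 36.5% and 25.9% of all genes. The cultures and the allografts are in separate count tables. By the labels, RNA input was 100 ng for the cultures and 500 ng for the allografts. Table, RNA input and growth condition therefore cannot be told apart in this comparison.

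All 7 fibrillar collagens were called higher, of which Col1a1 and Col5a1 passed the filter in the cultures alone, with a median log2 difference of 14.99, or 13.40 with genes at 0 in culture at their bound. Over Col1a1 and Col5a1 the median was 8.09. Col1a1 (ENSMUSG00000001506, chr11:94827050-94843868 in GRCm39, plus strand), the main chain of collagen I, had 0.897 and 0.807 CPM in the cultures, and 3950, 7860, 9420 and 10300 CPM in allografts 1 to 4 and 14000, 5150, 6370 and 13900 CPM in allografts 5 to 8. No culture came near any allograft, and the mean of 8880 ± 3780 CPM (SD, n = 8) was 10400 times the culture mean (log2 difference 13.40 ± 0.89 SE, adjusted p 1.12e-06 by edgeR). Per kilobase Col1a1 was the highest member in the allografts, at 1350 ± 576 CPM per kb, and ranked 25 among all genes. Its partner Col1a2 (ENSMUSG00000029661, chr6:4504814-4541544 in GRCm39, plus strand) had 0 counts in both cultures and 2740 CPM in the lowest allograft, a median of 5020 and 9150 in the highest, at least 171000-fold higher on the means. Col3a1, the collagen III chain of loose tissue, had 0.0854 and 0.237 CPM in culture and 2510, 4270 and 8490 CPM as lowest, median and highest allograft, a ratio of 31500. Per kilobase, Col1a1 exceeded Col1a2 by 2.65 to 3.36 times in the 8 allografts, and Col3a1 by 2.36 to 3.45 times. These ratios depend on the annotated exon lengths, 6563 bases for Col1a1, 12426 for Col1a2 and 9816 for Col3a1. In CPM the allograft means were 8880, 5780 and 5080 in the same order.

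Col5a1 rose least among the fibrillar group, from 159 and 168 CPM to 524, 1060 and 1620 CPM as lowest, median and highest allograft (log2 difference 2.77 ± 0.38, adjusted p 1.26e-04 by edgeR). Its partner Col5a2 went from 0 counts to between 378 and 1190 CPM, at least 20700-fold, so that the per kilobase ratio of Col5a1 to Col5a2 was 1.17 to 2.31 in the allografts. Col5a3 (54.4 to 176 CPM) and Col11a1 (22.9 to 96.2 CPM), a fibril-initiating chain, were also at 0 counts in the cultures, and their ratios were at least 3240 and at least 1620.

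The 3 collagen VI chains (median log2 difference 6.41) and the 3 fibril-associated collagens (median 11.96) were called higher too, of which Col6a1, Col6a2 and Col12a1 passed the filter in the cultures alone. Over Col6a1 and Col6a2 the median was 5.54, and Col12a1 by itself had 7.26. Col6a1 (ENSMUSG00000001119, chr10:76544626-76562002 in GRCm39, minus strand) went from 55.8 and 59.5 CPM to 872, 1420 and 1950 CPM (lowest, median, highest; log2 difference 4.68 ± 0.33, adjusted p 1.03e-06 by edgeR). Col6a3 showed the largest change of the 3, from 0.0854 and 0.427 CPM to 492, 656 and 948 CPM, a ratio of 2650. Col12a1, which decorates collagen I fibrils, went from 5.42 and 5.56 CPM to between 391 and 1290 CPM, 148 times the culture mean. Col14a1 and Col16a1 had 1 and 3 counts over both cultures and 37.7 to 173 CPM and 66.3 to 217 CPM in the allografts. With so few counts in culture no fold is given for these 2.

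Of the 8 laminin, nidogen and perlecan genes 5 were called higher and 1 lower, against 38.8% and 23.3% of all genes. Of the 5 that passed the filter in the cultures alone 2 were higher and 1 lower, against 25.9% and 34.7% of all such genes. Lama5 (ENSMUSG00000015647, chr2:179818166-179867652 in GRCm39, minus strand), the laminin α5 chain of epithelial and vascular basement membranes, was the one member called lower: it had 754 and 744 CPM in the cultures and 181, 202 and 288 CPM as lowest, median and highest allograft (log2 difference -1.70 ± 0.15, adjusted p 4.61e-06 by edgeR), below the cultures in 8 of 8. It lay between 629 and 770 CPM in the co-cultures. Lamb1 (357 and 367 CPM; 207 to 374 CPM in the allografts; log2 difference -0.36 ± 0.19, adjusted p 0.111) and Lamc1 (286 and 284 CPM; 144 to 325 CPM; -0.26 ± 0.22, adjusted p 0.308) were not called, and 7 of the 8 allografts were below the cultures for each. Lama4, the α chain of vessels and fat, went from 0 counts to 37.3, 69.8 and 93.3 CPM, at least 1990-fold. Per kilobase, Lama4 made up 15.1% to 29.8% and Lama5 63.6% to 82.8% of the 4 α chains among the members, against 0% and 100% in culture. Lama1 (1.13 to 11.8 CPM) and Lama2 (3.61 to 10.1 CPM), a muscle and nerve laminin chain, were the lowest members by CPM in the allografts.

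The laminin and collagen IV linkers rose. Nid1, which joins laminin to collagen IV, went from 4.01 and 3.30 CPM to 59.4, 133 and 186 CPM (log2 difference 5.21 ± 0.48, adjusted p 1.08e-05 by edgeR). Hspg2, which encodes perlecan, went from 99.6 and 105 CPM to 255, 486 and 553 CPM (2.18 ± 0.33, adjusted p 2.09e-04 by edgeR).

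Of the 6 network and basement membrane collagens 3 were called higher and 0 lower. All 6 passed the filter in the cultures alone, where 25.9% of all genes were higher and 34.7% lower. Col4a1 was at 383 and 377 CPM in culture and 399, 563 and 663 CPM in the allografts (log2 difference 0.57 ± 0.20, adjusted p 0.0318 by edgeR). The median was 0.419 over all genes, and -0.15 over those that, like Col4a1, passed the filter in the cultures alone. The Col4a1 call depended on single libraries: the adjusted p was 0.150 without culture 1, 0.151 without culture 2, 0.0558 without allograft 5 and 0.0668 without allograft 6. Col4a2 (268 and 269 CPM against 218 to 426 CPM; 0.39 ± 0.23, adjusted p 0.160) and Col18a1 (660 and 655 CPM against 532 to 956 CPM; 0.27 ± 0.19, adjusted p 0.239) overlapped between the groups and were not called. Col8a1, a short-chain collagen of vessels, rose from 34.1 and 37.7 CPM to 185, 258 and 386 CPM (2.98 ± 0.35, adjusted p 4.35e-05). Col15a1, found beneath endothelium and muscle, rose from 0.961 and 0.783 CPM to 30.3, 54.4 and 120 CPM (6.29 ± 0.68, adjusted p 4.20e-05). Col7a1, the anchoring fibril collagen of skin, was below both cultures (90.4 and 84.5 CPM) in 8 of 8 allografts (23.4 to 76.6 CPM), but the difference of -0.78 ± 0.35 missed the threshold (adjusted p 0.0785). It passed in 3 of 17 alternative runs. These were edgeR without allograft 3 (adjusted p 0.00173), DESeq2 (adjusted p 0.0435) and edgeR with the replicate numbers as a block (adjusted p 0.00359).

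All 5 matricellular genes, all 5 elastic fibre and proteoglycan genes and both cross-linking enzymes were called higher, 9 of these 12 having passed the filter in the cultures alone. The median log2 difference was 5.98 for the matricellular and 9.83 for the elastic fibre and proteoglycan genes. Over those that passed in the cultures alone it was 3.88 and 8.6. Sparc, at 297 and 311 CPM in culture, reached 2880, 4280 and 6270 CPM (lowest, median, highest), a ratio of 14.1, and was the second highest member per kilobase in the allografts (1130 ± 321 CPM per kb). Thbs1 changed least, from 312 and 325 CPM to 876, 1240 and 1670 CPM (log2 difference 2.02 ± 0.23, adjusted p 2.70e-05). Postn, a periosteal and stromal glycoprotein, had 0 counts in culture and 465, 790 and 2250 CPM in the allografts, at least 29800-fold. Tnc went from 0.149 and 0.522 CPM to between 619 and 2280 CPM (ratio 4050) and Thbs2 from 11.5 and 16.4 CPM to between 501 and 1400 CPM (ratio 61.3). Bgn, the small proteoglycan biglycan, went from 0.299 and 0.522 CPM to 1770, 3300 and 4910 CPM, a ratio of 7940, and was the third highest member per kilobase (534 ± 160 CPM per kb). Fbn1 and Fbln1, which build microfibrils and elastic fibres, rose from under 1 CPM to 222 to 674 CPM and 51.9 to 247 CPM. Eln, the elastin gene, went from 0 counts to between 39 and 227 CPM, at least 3270-fold, and Vcan, a large proteoglycan, from 1.75 and 1.21 CPM to between 14.7 and 61.9 CPM. Lox and Loxl2, which oxidise lysines to cross-link collagen, went from 1.58 and 2.40 CPM to 88.9 to 241 CPM and from 0.320 and 0.712 CPM to 72.5 to 175 CPM.

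Split by the level in culture, the 20 members under the 1 CPM limit were all called higher in the allografts, 6 of them having passed the filter in the cultures alone, with a median log2 difference of 12.76 (11.67 with the genes at 0 at their bound). Over those 6 the median was 8.87. Of the 19 made in culture, 13 were called higher, 1 lower and 5 were not called (Col4a2, Col18a1, Col7a1, Lamb1 and Lamc1), with a median of 2.77. This split uses the culture level that also enters the difference, so it is a description. Whether a gene that was higher in an allograft came from host cells or from Panc02 cells that had changed cannot be told apart in these counts.

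Other genes of collagen biology were also compared between allografts and culture. The counts of these lists stand against the 38.8% higher and 23.3% lower of all genes, and those over the genes that passed the filter in the cultures alone against 25.9% and 34.7%. Of 30 collagen processing genes, 29 were tested in the allografts, with 24 higher and 3 lower, or 15 and 3 of the 20 that passed in the cultures alone. Serpinh1, the collagen chaperone HSP47, averaged 0.125 CPM in culture and 730 CPM in the allografts (log2 difference 12.55 ± 0.72), and Fkbp10, a prolyl isomerase for collagen, 0.217 and 160 CPM (9.56 ± 0.53). P3h4 (1.74 ± 0.11) and the elastin cross-linker Loxl1 (11.98 ± 0.72) were also higher, while Loxl4 (-1.39 ± 0.16), P3h2 (-1.03 ± 0.24) and Mia3 (-0.45 ± 0.12), a procollagen export factor, were lower. Among 25 other collagens, 16 of the 21 tested were higher and 0 lower, or 3 and 0 of the 4 that passed in the cultures alone. By p-value the first were Col8a2 (0.0546 CPM in culture, 54.7 CPM in the allografts) and Col24a1 (0.0926 and 7.78 CPM), and by level Col28a1 (0 and 62.3 CPM) was the highest of the list in the allografts. None of these collagens had a negative log2 difference, but 17 of the 21 were tested because of their level in the allografts. The direction of those 17, with Col8a2, Col24a1 and Col28a1 among them, was not free. Of 12 other basement membrane genes, 7 of the 11 tested were higher and 2 lower, or 1 and 2 of the 5 that passed in the cultures alone. Nid2 went from 0 CPM to 25.9 CPM and Pxdn, which cross-links collagen IV, from 0.0451 to 104 CPM, whereas Npnt, an integrin ligand, fell from 606 to 129 CPM.

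Of 38 other matrix glycoproteins and proteoglycans, 33 of the 37 tested were higher and 3 lower, or 15 and 3 of the 19 that passed in the cultures alone. Tgfbi rose from 0 to 429 CPM, Prelp from 0.338 to 308 CPM and Fbln5 from 0.259 to 36 CPM. The latent TGF-beta binding proteins Ltbp1 (475 to 235 CPM) and Ltbp3 (556 to 363 CPM) and osteopontin, Spp1 (4290 to 2000 CPM), fell. Of 26 matrix receptors, 13 were higher (38.8% of all genes) and 7 lower (23.3% of all genes). Of the 20 that passed in the cultures alone 7 were higher and 7 lower, against 25.9% and 34.7% of all such genes. The share lower was near that of all genes, so it is no result about the receptors. The laminin-binding integrin chains Itga3 (1490 to 284 CPM, log2 difference -2.34 ± 0.12) and Itga6 (506 to 81.4 CPM, -2.57 ± 0.17) fell, as did Cd44 (1340 to 352 CPM) and Itgb4 (334 to 110 CPM). The collagen-binding integrin chain Itga1 (0 to 15.4 CPM), Itga9 (0 to 30.2 CPM), the collagen receptor Ddr2 (0.628 to 130 CPM) and Itgb3 (5.65 to 43.0 CPM) rose. All the calls in these lists are by edgeR at an adjusted p under 0.05.

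In co-culture with NK cells the collagen VI genes Col6a1 and Col6a2 rose. Of the 39 members 27 passed the filter on low counts, 5 were called higher and 6 lower against cultured Panc02 (edgeR, adjusted p under 0.05, with the 2 kinds of co-culture averaged). Of all 18172 genes tested, 12.2% were higher and 6.12% lower. Among the 25 members that passed the filter in the cultures alone, which leaves out Col6a3 and Tnc, 4 were higher and 6 lower, against 9.27% and 7% of 15872 such genes. The median log2 difference was -0.10 over the members tested and 0.01 over all genes. The libraries did not overlap for 6 members that were higher and 10 that were lower, against 14.9% and 22.7% of all genes. This comparison lies within 1 count table. The summed NK marker level was 171 to 313 CPM in the co-cultures, 17.7 and 19.8 CPM in Panc02 alone and 6040 to 7000 CPM in NK cells cultured alone.

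Col6a1 had 55.8 and 59.5 CPM in Panc02 alone, 97 and 109 CPM with female NK cells and 105 and 92.4 CPM with male NK cells. Each of the 4 co-cultures was above both cultures (log2 difference 0.86 ± 0.06, adjusted p 8.74e-10 by edgeR). Col6a2 had 13.3 and 14 CPM alone, 30.7 and 29.7 CPM with female and 28.8 and 27.8 CPM with male NK cells, again with no overlap (1.15 ± 0.08, adjusted p 4.84e-10 by edgeR). Col6a3 was near or under 1 CPM, with 0.0854 and 0.427 CPM alone, 0.780 and 0.769 CPM with female and 1.16 and 0.701 CPM with male NK cells (1.79 ± 0.56, adjusted p 0.0307 by edgeR). Col6a3 was tested because of its level in co-culture, and its call was lost by DESeq2 (adjusted p 0.0628) and without culture 1 (adjusted p 0.329 by edgeR). In NK cells cultured alone Col6a1 was at 0.234 CPM or below, Col6a2 at 0.108 CPM or below and Col6a3 at 0.0553 CPM or below, each under its level in Panc02 alone. The per kilobase ratio of Col6a1 to Col6a2 was 6.00 to 6.96 in the co-cultures, under both cultures.

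Thbs2 (ENSMUSG00000023885, chr17:14885762-14914497 in GRCm39, minus strand), an anti-angiogenic thrombospondin, had 11.5 and 16.4 CPM alone, 24.5 and 25.7 CPM with female and 25.8 and 22.5 CPM with male NK cells (0.87 ± 0.11, adjusted p 1.49e-05 by edgeR), and it was at 0.516 CPM or below in NK cells cultured alone. Thbs1 moved the other way, from 312 and 325 CPM to 277 and 263 CPM with female and 266 and 248 CPM with male NK cells (-0.22 ± 0.04, adjusted p 2.31e-04 by edgeR). Col6a1, Col6a2, Thbs2 and Thbs1 were called in every alternative run for this comparison.

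The other 7 calls, Col6a3 among them, were each lost when 1 of the cultures was left out. Of the 6 network and basement membrane collagens 3 were lower and 0 higher, with a median difference of -0.115. All 6 passed the filter in the cultures alone, where 7% of all genes were lower and 9.27% higher. Lamc1 was higher by 0.12 ± 0.04 (284 and 286 CPM alone, 289 to 310 CPM in co-culture). Nid1 (-0.64 ± 0.20, at 2.01 to 2.45 CPM against 3.30 and 4.01 CPM), Col8a1 (-0.24 ± 0.07), Col7a1 (-0.15 ± 0.05), Col4a1 (-0.13 ± 0.03) and Sparc (-0.11 ± 0.04) were lower. Col4a1 had 383 and 377 CPM alone, 341 and 329 CPM with female and 343 and 330 CPM with male NK cells, and Col7a1 had 90.4 and 84.5 CPM, 83.1 and 77.9 CPM, and 72.2 and 71.4 CPM in the same order. Col8a1 had 34.1 and 37.7 CPM alone and 31.2, 26.1, 29.4 and 30.8 CPM in the co-cultures, and none of these 3 collagens overlapped between the groups. Without culture 1 the adjusted p was 0.162 for Lamc1, 0.341 for Nid1, 0.0688 for Col8a1, 0.377 for Col7a1, 0.147 for Col4a1 and 0.0760 for Sparc, and without culture 2 it was 0.151, 0.0772, 0.370, 0.0545, 0.0857 and 0.403 in the same order. The epithelial markers summed to 4170 to 4250 CPM in the co-cultures, somewhat under the 4480 and 4430 CPM of Panc02 alone, and the part of this shift in the small decreases was not tested. Of the fibrillar collagens Col1a1 was at 0.547 to 1.00 CPM in co-culture and Col3a1 at 0.111 to 0.214 CPM. Col1a2 was at 0.109 to 0.401 CPM in co-culture, on 5 to 18 counts, where Panc02 alone had 0 counts. NK cells cultured alone had 0.410 to 0.736 CPM, and the part of NK RNA in the co-culture level was not tested.

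**Figure D3:**
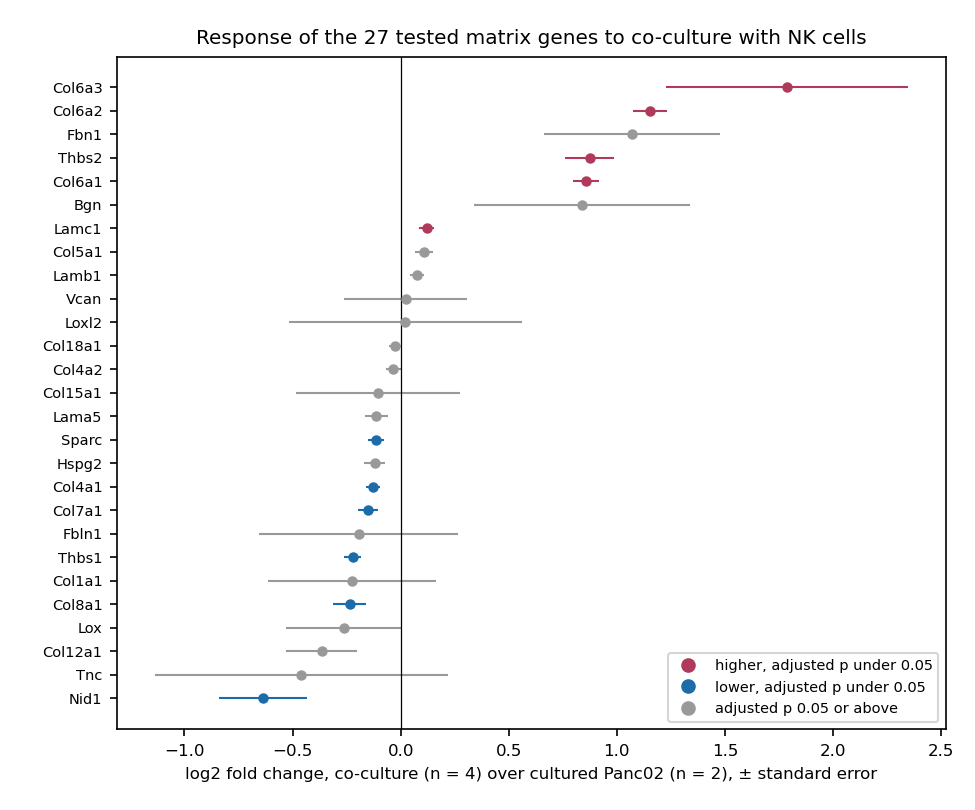
Log2 fold change (± standard error) of the 27 tested matrix genes in 4 co-cultures over 2 cultures of Panc02 alone, sorted by size, with called genes in colour. Col6a3, Col6a2, Thbs2 and Col6a1 lie between 0.86 and 1.79, with Fbn1 (1.07, not called) among them, and the genes called lower lie between -0.64 and -0.11.

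Other matrix genes also changed in co-culture. Of 22 collagen processing genes tested 5 were higher and 2 lower, with Plod3 (0.28 ± 0.04) and Adamts14 (0.50 ± 0.09) higher and the procollagen proteinase enhancers Pcolce (-0.16 ± 0.03) and Pcolce2 (-0.31 ± 0.07) lower. Among 20 other matrix glycoproteins 3 were higher and 5 lower, and Ccn2, a target of TGF-beta and YAP signalling, fell from 106 to 69.1 CPM (-0.56 ± 0.05, adjusted p 1.97e-08 by edgeR). Ccn1 (0.28 ± 0.04) was higher, and Ltbp3 (-0.24 ± 0.04), Spp1 (-0.15 ± 0.03) and Efemp1 (-0.39 ± 0.08) were lower. Of the 22 receptors tested 6 were higher and 1 lower, with Cd44 at 1340 and 1620 CPM (0.33 ± 0.03), Itga2 at 2.54 and 5.85 CPM (1.26 ± 0.19) and Itgb3 at 5.65 and 9.05 CPM (0.72 ± 0.13) in culture and co-culture, and Itgb4 lower at 334 and 263 CPM (-0.29 ± 0.04). In NK cells cultured alone Cd44 averaged 157 CPM, under its level in Panc02 alone. Itga2 averaged 339 CPM and Itgb3 27 CPM there, above their levels in Panc02 alone. The part of NK RNA in these 3 differences was not tested. Col8a2 (0.0546 to 0.665 CPM) was the 1 other collagen of 7 tested that was higher. Lamb3 (0.250 to 0.782 CPM) was the 1 other basement membrane gene of 6. Both were tested because of their level in co-culture, so that their direction was not free. Among genes that passed the filter in the cultures alone, 0 of 4 other collagens and 0 of 5 other basement membrane genes were called. Of the receptors 5 of 20 were higher and 1 lower, of the processing genes 5 of 20 and 2, and of the glycoproteins 3 of 19 and 5. Of all 15872 such genes 9.27% were higher and 7% lower. In NK cells cultured alone Col8a2 and Lamb3 averaged 16.3 and 15.9 CPM, Adamts14 240 CPM, and Ccn2 0.0568 CPM. For the first 3 the level was above that of Panc02 alone, and the part of NK RNA in their differences was not tested.

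Between co-cultures with female and male NK cells 1 of 27 members was called, Sparc, which was lower with female NK cells, against 0.985% of all 18172 genes higher and 0.154% lower with female NK cells. Sparc had 254 and 259 CPM with female and 295 and 278 CPM with male NK cells (log2 difference, female minus male, -0.19 ± 0.04, adjusted p 0.0303 by edgeR). The call was lost in the fit of the 4 co-cultures alone (adjusted p 0.0677) and without either male library (0.340 without library 4, 0.0645 without library 5), without female library 1 (0.175) and without culture 1 (0.0555). For Col6a1 the difference was 0.03 ± 0.07, for Col6a2 0.07 ± 0.08 and for Thbs2 0.03 ± 0.12.

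Across the 8 allografts edgeR called 0 of 39 members between female and male hosts, where 0% of 20560 genes were higher and 0.0146% lower in female hosts. An unadjusted p under 0.05 by edgeR was found for 1 of 39 members, against 3087 of all 20560 genes tested. DESeq2 also called 0 members. The log2 differences (female minus male) lay between -0.96 and 0.74. No member had libraries that did not overlap between the sexes, against 9.67% of all genes, and no member had an exact permutation p under 0.05, where 4 against 4 cannot go below 0.0286. Postn had the difference farthest from 0, at 465, 750, 890 and 583 CPM in female and 2250, 691, 830 and 1590 CPM in male hosts (-0.96 ± 0.38, unadjusted p 0.0324 and adjusted p 0.292 by edgeR). The male hosts held both the highest values and values inside the female range. For Eln the difference was 0.74 ± 0.42 (adjusted p 0.433). Xist, transcribed from the inactive X chromosome, was at 41.5 to 162 CPM in female and 0.523 to 8.94 CPM in male hosts.

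Among the 8 allografts several fibrillar and collagen VI genes varied with Col1a1, and over all 8 no such relation was detected for Col4a1. On log2(CPM + 1), Col1a2 followed Col1a1 with a Pearson r of 0.984 (exact permutation p 4.96e-05, adjusted 0.00186 over 75 relations) and a Spearman rho of 0.976 (exact permutation p 3.97e-04, adjusted 0.00744). Leaving out the 2 allografts farthest from the median of Col1a1, numbers 1 and 6, gave 0.971. For Col3a1 the r was 0.965 and the rho 0.976 (exact permutation p 3.72e-04 and 3.97e-04, adjusted 0.00558 and 0.00744), and 0.943 without those 2. The other members that passed for Col1a1 by both measures were Sparc (r 0.976), Col6a2 (0.965), Col16a1 (0.950), Col5a2 (0.938), Col6a1 (0.935), Col5a1 (0.911) and Nid1 (0.846), 9 of 38 in all. For Nid1 the r was 0.672 without allografts 1 and 6, so that this relation rests partly on them. An r of 0.9 or more with Col1a1 was found for 8 of 38 members (21.1%), against 0.428% of the 20559 other genes tested.

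No relation between Col4a1 and Col1a1 was detected over the 8 allografts (r -0.13, exact permutation p 0.759; rho -0.12, exact permutation p 0.793). Without allografts 1 and 6 the r was -0.69, so that the value depends on those 2. Within the female hosts the r was 0.461 and within the male hosts -0.92, each over 4 libraries. Col4a1 was followed by its partner Col4a2, with an r of 0.977 (exact permutation p 4.46e-04, adjusted 0.00558) and a rho of 0.857 (adjusted 0.0536), and by Col18a1 with an r of 0.867 (adjusted 0.0362) and a rho of 0.905 (adjusted 0.0428). Without allografts 1 and 4 these r were 0.976 and 0.887. Col4a1 and Col4a2 lie head to head on opposite strands of chromosome 8, and in the annotation of the files they overlap by 22 bases. The libraries share depth and composition with every gene, so these relations describe 8 tumours and no link between the genes.

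**Figure D4:**
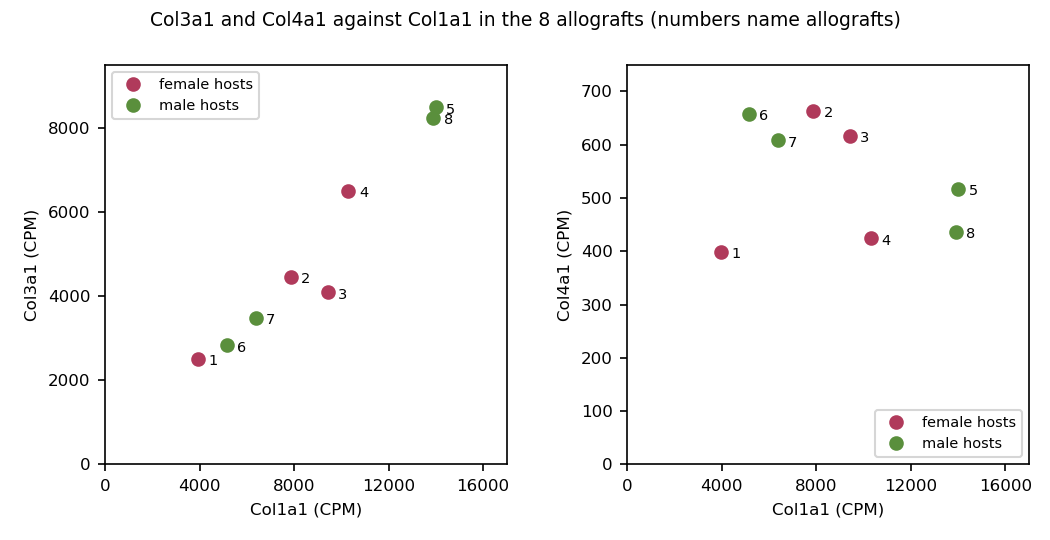
Col3a1 (left) and Col4a1 (right) against Col1a1 in CPM, 1 numbered point per allograft, coloured by host sex, with linear axes from 0. Col3a1 climbs with Col1a1 from allograft 1 (2510 CPM) to allograft 5 (8490 CPM), while Col4a1 shows no such order.

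Allograft 1 was the lowest library for 26 of the 39 members and the highest for 0, and allograft 5 was the highest for 14. The spread between allografts was smallest for Lama5 (coefficient of variation 19.2%), Col18a1 (19.6%), Col4a1 (20.3%) and Thbs1 (21.0%). It was largest for Lama1 (72.8%), Fbln1 (60.3%), Postn (60.2%) and Col14a1 (56.2%). Allograft 4 had the highest summed muscle markers (42800 CPM) and also the highest summed fibroblast and pericyte markers (2350 CPM). It was the highest for Fbln1 (247 CPM, others 51.9 to 120 CPM), Col14a1 (173 CPM), Col12a1 (1290 CPM) and Lama1 (11.8 CPM).

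**Figure D5:**
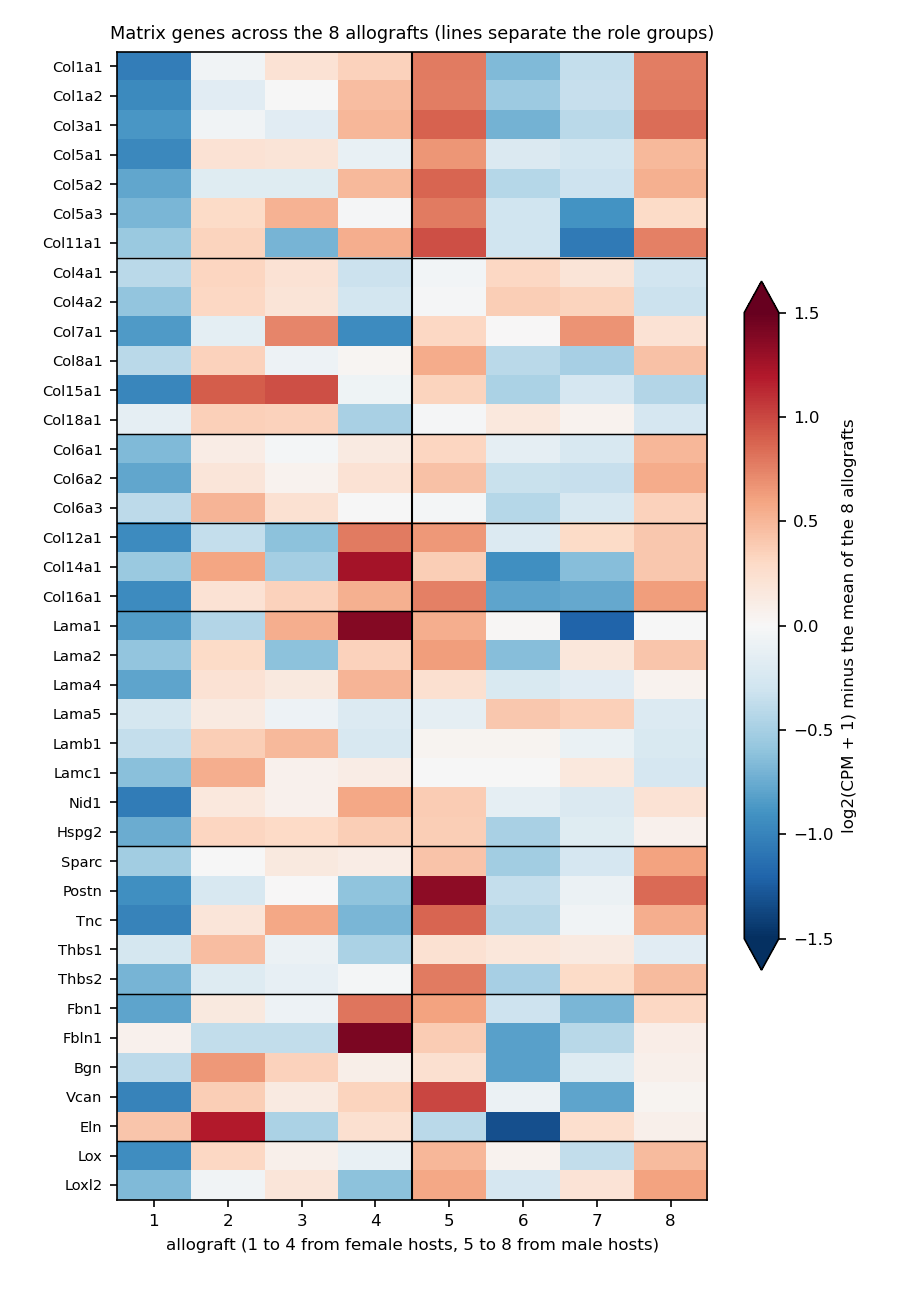
Deviation of each matrix gene in each allograft from its mean over the 8 allografts, on log2(CPM + 1), with rows in role groups and the vertical line between female and male hosts. The fibrillar collagens are low in allografts 1, 6 and 7 and high in 5 and 8, whereas Col4a1 and Col4a2 are low in allografts 1, 4 and 8.

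None of 117 relations between the members and the summed fibroblast, endothelial or skeletal muscle markers passed an adjusted p of 0.05 over the 8 allografts. The nearest was Col15a1 with the endothelial markers (r 0.922, exact permutation p 0.00181, adjusted 0.141; rho 0.881, adjusted 0.728), followed by Lamb1 (r 0.912, adjusted 0.141) and Lamc1 (r 0.866, adjusted 0.318). Col15a1 had an r of 0.813 without allografts 1 and 3, and of 0.999 within the female and 0.313 within the male hosts. The median r of the members was 0.196 with the fibroblast markers, 0.319 with the endothelial and 0.300 with the muscle markers. Leaving out the 2 allografts farthest from each marker median gave -0.03, -0.12 and 0.325, so that the first 2 turned sign. Without allografts 2, 4 and 7, whose muscle markers were highest, 32 members were called higher and 2 lower than culture, and 0 were called between host sexes.

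NK cells held few of these transcripts. The 39 genes summed to 0.0142% to 0.0218% of counts in fresh NK cells and to 0.00195% to 0.00303% after culture with interleukin 2. The fresh cells had Thbs1 at 59.5 to 132 CPM, Col5a1 at 22 to 26.6 CPM, Col18a1 at 19.3 to 29.8 CPM and Lamc1 at 8.68 to 12.7 CPM. In cultured NK cells Thbs1 was at 1.58 to 3.49 CPM, Col5a1 at 0.277 CPM or below, Col18a1 at 2.66 CPM or below and Lamc1 at 7.25 to 8.85 CPM. The fresh and cultured cells were extracted by different methods per the labels' protocols, so extraction and culture cannot be told apart here.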

How the data were processed

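The deposited values are read counts per gene, made by the authors with featureCounts 2.0.6 after alignment with HISAT2 2.2.1 to GRCm39, per the file headers and the submitters' processing notes; cutadapt 4.4 and SAMtools 1.19.2 are also named there. Per the file headers, genes are from Ensembl 113, reads were counted on the reverse strand, multi-mapping reads were counted, and mates were counted singly. The 39 members and all gene lists were chosen with earlier results of these data known. The 39 symbols and their Ensembl IDs all matched; 1 listed gene outside the members (Nov) did not. CPM uses the total of all gene counts.

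The labels place the 2 cultures of Panc02 in the table of the allografts, but their columns are in the table of the NK cells and co-cultures; the columns were used. Groups follow the labels. Libraries held 13025549 to 46842646 counts, and no pair of replicates agreed within sampling noise. Tests used edgeR 4.0.16 (R 4.3.3; TMM scaling, filterByExpr, robust quasi-likelihood, Benjamini-Hochberg adjustment at 0.05 over all genes tested), tested on simulated counts. SE is the log2 difference over the square root of its F value. Comparisons were allografts against cultured Panc02 (10 libraries; log2 difference of the mean of both host sexes), co-culture against cultured Panc02 and female against male NK donors (6 libraries), and female against male hosts (8 libraries). Alternatives were median-ratio scaling, DESeq2 1.42.0, no filter, a filter at 1 CPM, each library left out, a replicate block, pooled groups and other fits.

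Named members were those with the largest difference in each direction and the highest level per role group, those called in co-culture, and those under 1 CPM in culture; from each other list up to 4 called genes by smallest p and those against the majority were named, with further ones chosen after their values were seen. Lists of 14 fibroblast and pericyte, 12 endothelial, 12 muscle, 10 macrophage, 7 adipocyte, 5 Schwann cell, 8 NK, 5 sex-linked and 8 epithelial markers were used. Promoter sequences are RefSeq's on GRCm38.p6; no protein sequences were used here. 1 called gene of the other lists is not reported here.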

Additional observations from a re-analysis of the deposited data

Results flagged for a closer look

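Of 78 groups of 4 allografts examined (39 members in 2 host sexes), 2 held a library far from the other 3, where chance alone gives about 1 in 20. Hspg2 was at 255 CPM in allograft 1, against 525 to 553 CPM in the other 3 female hosts. Fbln1 was at 247 CPM in allograft 4, against 70.8 to 96.3 CPM in the other 3 female hosts. Allograft 4 had the highest skeletal muscle markers and also the highest fibroblast and pericyte markers. The response of Sparc to co-culture differed between female and male NK cells by -0.19 on the log2 scale, by the test of the difference itself (edgeR, adjusted p 0.0303), and this rested on single libraries as given above.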

How the results depend on the processing

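Of the 34 members called between allografts and culture, 33 kept their direction and call in every alternative run, and the exception was Col4a1; its log2 difference was 0.52 (adjusted p 0.109) with the replicate block and 0.52 (adjusted p 0.0505) without allografts 2, 4 and 7. No call reversed. The number of members higher was 32 to 33; the number lower was 1 in most settings, 2 with DESeq2, with no filter, with the replicate block and without the 3 muscle-rich allografts (added after seeing the data), and 1 to 3 when each library was left out. For co-culture 4 of 11 calls held in every alternative. DESeq2 called 3 members lower and the 4 co-cultures taken as 1 group gave 3 lower, against 6; leaving out each library gave 3 to 6 higher and 1 to 7 lower. With the replicate block 3 were higher and 4 lower; the numbers are only shared labels, and same-numbered libraries of culture and co-culture deviated together with an r of 0.0776 over 9519 genes. For female against male NK donors 1 member was higher with no filter, 0 were lower in the 4 co-cultures alone, and leaving out each library gave 0 to 1 higher and 0 to 1 lower. Over all genes, DESeq2 called 239 higher and 310 lower between host sexes against 0 and 3 by edgeR, and 692 lower in co-culture against 1113; leaving out each library gave 1170 to 2275 higher and 357 to 1255 lower in co-culture, and between NK donors 64 to 178 higher and 12 to 53 lower against 179 and 28. The mean share of the members in cultured Panc02 was 0.366% with TMM-scaled library sizes against 0.382%. The cause of these shifts was not tested. With 2 cultures the precision of every comparison with Panc02 alone is limited, and levels under 0.1 CPM rest on a few counts.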
